A study of Mus musculus with 4 samples.

Results

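E2F factors and pocket proteins are the switch between quiescence and DNA replication, and 10 of their genes were read in mouse blood stem cells. These were the factors E2f1, E2f2, E2f3, E2f4, E2f6, E2f7 and E2f8 and the pocket proteins Rb1, Rbl1 (p107) and Rbl2 (p130). Members were taken by symbol: every probe set annotated to 1 of these symbols alone was used, which gave 21 probe sets for 10 of the 18193 genes named on the array. Of the 21, 15 passed the filter on dim probe sets and were tested, and each of the 10 genes had at least 1 tested probe set. The lists, like the members, were chosen with earlier results of these data known.

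The samples were long-term haematopoietic stem cells (LT-HSC, sorted as Lin-, cKit+, Sca1+, CD34-, CD135-) and short-term ones (ST-HSC, in the same gate but CD34+), with 2 arrays each. All came from bone marrow of mice without the Mx-Cre transgene, on a C57BL/6 background, so Mx-Cre recombined no allele in any of them. All the mice had been given 7 injections of poly(I:C), an RNA mimic of viral infection that sets off the interferon response. The mice were 7.5 weeks old and 4 weeks past their last injection for LT-HSC replicates 1 and 2 and for ST-HSC replicate 2. They were 8.5 weeks old and 3 weeks past it for ST-HSC replicate 3. Whether the 2 LT-HSC samples stem from separate animals or pools is not stated, so p-values measure the spread between these arrays, which may be technical. For the ST-HSC samples 1 label field names LT-HSC next to a CD34+ gate, and groups follow the titles.

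The E2F factors bind DNA at genes of replication and division. E2F1, E2F2 and E2F3 activate transcription and are held in check by RB1, while E2F4 works with p107 and p130 to keep the same genes silent in resting cells. Cyclin-dependent kinases phosphorylate the pocket proteins and release the factors. E2F6 represses without any pocket protein, within a Polycomb complex, and E2F7 and E2F8 are repressors that are themselves made in S phase and switch E2F targets off again. p107 is also made in cycling cells, whereas p130 accumulates in quiescent ones. In mice, loss of all 3 pocket proteins drives blood stem cells into proliferation.

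Of the 3 members that passed the test, all were lower in LT-HSC: Rbl1, E2f7 and E2f8, the pocket protein and the repressor E2Fs that are made in cycling cells. They were 3.37-fold, 4.04-fold and 3.08-fold lower, with 2 arrays per group. In limma at a Benjamini-Hochberg adjusted p of 0.05, 4 of the 15 tested member probe sets were called lower in LT-HSC and 0 higher. Over all 27022 tested probe sets, these shares were 5.48% and 6.72%. At an unadjusted p under 0.05, 5 of the 15 were lower and 2 higher, beside 4505 and 3704 of the 27022. The activator gene E2f2 lay at 1.003 and the 2 tested probe sets of E2f3 at 0.94 and -0.93, in log2 units of LT-HSC minus ST-HSC. None of these passed. E2f1, E2f4, E2f6, Rb1 and Rbl2 did not pass either.

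The promoters of the called genes and of E2f3 and E2f2 are shown here because E2F sites in such promoters are the classical means by which this family regulates its own genes. Each line gives 1 window of 300 bases, from 250 before to 50 after an annotated start, from RefSeq on GRCm38.p6, read 5′ to 3′ along the gene's strand. Capitals mark matches on either strand to an E2F motif (TTTCCCGC, TTTCGCGC, TTTGGCGC or TTTGCCGC) or to the cell cycle homology region, CHR (TTTGAA).
Rbl1, chr2:157204485-157204784, minus strand: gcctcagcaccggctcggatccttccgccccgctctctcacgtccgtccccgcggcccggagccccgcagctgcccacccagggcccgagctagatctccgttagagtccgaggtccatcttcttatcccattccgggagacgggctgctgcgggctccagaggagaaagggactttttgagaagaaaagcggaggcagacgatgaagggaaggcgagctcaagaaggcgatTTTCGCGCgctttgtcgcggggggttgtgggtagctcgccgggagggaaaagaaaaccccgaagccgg
E2f7, chr10:110745189-110745488, plus strand: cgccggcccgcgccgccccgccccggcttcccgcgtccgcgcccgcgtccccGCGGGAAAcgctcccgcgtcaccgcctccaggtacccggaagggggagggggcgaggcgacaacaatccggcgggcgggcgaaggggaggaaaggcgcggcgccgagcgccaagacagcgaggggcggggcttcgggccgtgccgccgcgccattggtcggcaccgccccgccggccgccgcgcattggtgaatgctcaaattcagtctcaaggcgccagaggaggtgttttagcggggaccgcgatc
E2f8, chr7:48881547-48881846, minus strand: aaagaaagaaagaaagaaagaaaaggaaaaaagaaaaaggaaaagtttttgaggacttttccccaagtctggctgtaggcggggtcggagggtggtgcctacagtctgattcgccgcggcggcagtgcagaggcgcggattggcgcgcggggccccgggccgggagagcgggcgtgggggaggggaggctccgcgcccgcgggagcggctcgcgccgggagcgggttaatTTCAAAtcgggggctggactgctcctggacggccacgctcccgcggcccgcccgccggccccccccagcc
E2f3, chr13:29986014-29986313, minus strand: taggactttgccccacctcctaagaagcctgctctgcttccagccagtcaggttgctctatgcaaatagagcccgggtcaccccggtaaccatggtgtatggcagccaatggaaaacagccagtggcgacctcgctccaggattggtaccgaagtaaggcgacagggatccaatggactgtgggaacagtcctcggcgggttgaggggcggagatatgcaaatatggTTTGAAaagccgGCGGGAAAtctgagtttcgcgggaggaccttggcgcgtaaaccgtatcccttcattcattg
E2f2, chr4:136172024-136172323, plus strand: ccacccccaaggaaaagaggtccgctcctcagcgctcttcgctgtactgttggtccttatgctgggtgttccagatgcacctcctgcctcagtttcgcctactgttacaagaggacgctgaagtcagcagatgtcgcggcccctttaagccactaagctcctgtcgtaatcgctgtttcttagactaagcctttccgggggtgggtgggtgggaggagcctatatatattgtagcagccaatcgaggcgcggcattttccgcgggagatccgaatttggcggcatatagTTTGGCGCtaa

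The Rbl1 window held an E2F match beginning 18 bases before the start, and that of E2f7 a match beginning 198 bases before it. The E2f8 window held no E2F match and a CHR match, TTCAAA as read here, beginning 20 bases before the start. The E2f3 window shown held both kinds of match, 11 bases before the start for E2F and 23 bases for CHR, and its second annotated start, downstream, held neither. In the E2f2 window shown, the E2F match began at position 40 after the start, and a second E2f2 start held a CHR match only. The only windows read for E2f1 and E2f6 held no match of either kind, and that of Rbl2 held a CHR match only. Letters outside these windows were not read, so E2f1 and E2f6 are not shown to lack E2F sites. An E2F match was present in 2.26% of all 32851 promoter windows and a CHR match in 17.9%. Of the 8 members with a window in the table, 4 had an E2F match and 4 a CHR match in at least 1 of their windows, beside 2.6% and 20.2% of all genes. Such matches are descriptions of the letters, not measured sites.

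**Figure D1:**
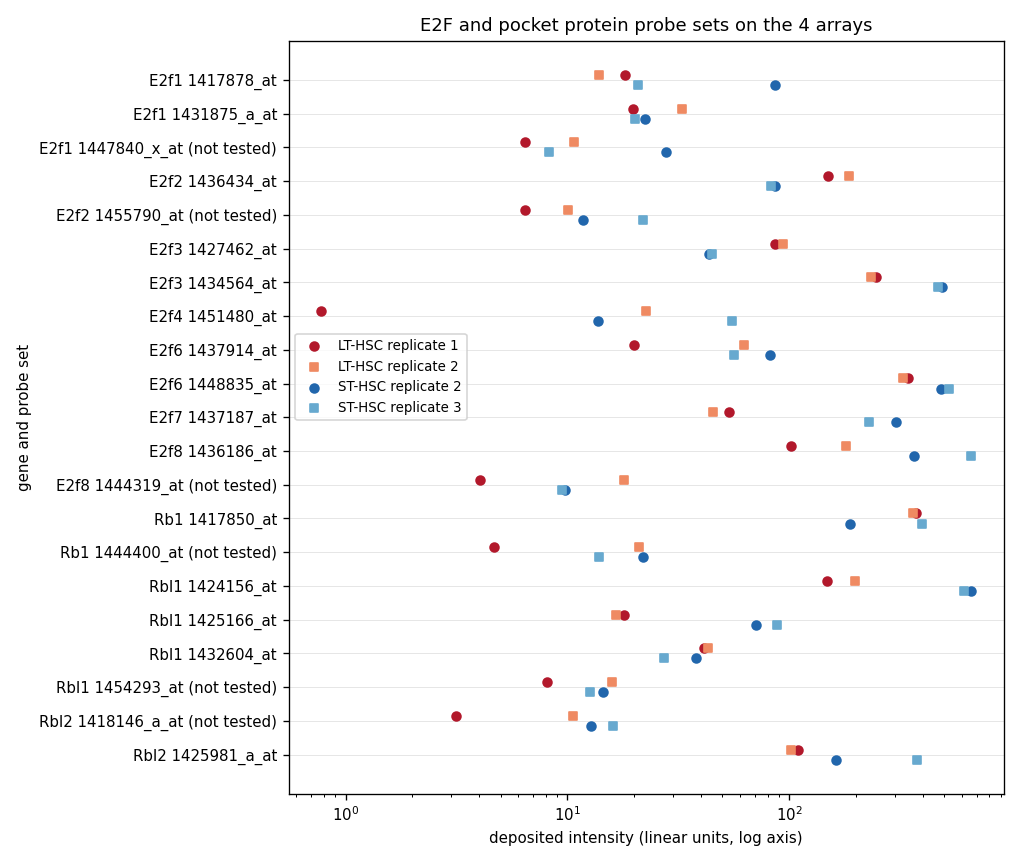
Deposited intensity (linear units on a log axis) of the 21 probe sets on each of the 4 arrays, with LT-HSC in red tones above ST-HSC in blue tones in each row. Rbl1 1424156_at, E2f7 and E2f8 1436186_at lie lower on both LT-HSC arrays, and the 2 tested E2f3 probe sets lie in opposite order.

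Values below are deposited intensities for each array, and differences are LT-HSC minus ST-HSC on the log2(intensity + 16) scale after quantile normalization, with the standard error (SE) of limma's moderated fit. The constant 16 understates the change of dim probe sets. Levels are compared only within a probe set. Over all 27022 tested probe sets, 5.48% were called lower in LT-HSC and 6.72% higher, and against that background 4 and 0 of the 15 tested member probe sets were called. The filter used the mean over all 4 arrays, so these counts cover only members that were bright enough in at least 1 group.

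Rbl1, which encodes p107, the pocket protein that cycling cells make, had 4 probe sets. The probe set 1424156_at read 148 and 199 on LT-HSC replicates 1 and 2, against 663 and 614 on ST-HSC replicates 2 and 3. Both LT-HSC arrays thus lay far below both ST-HSC arrays. Its difference was -1.75 (SE 0.28, adjusted p = 0.0126). In bulk arrays such a difference can come from fewer cells with the transcript or from less RNA per cell, and these cannot be told apart. The probe set 1425166_at read 18.1 and 16.5 on the LT-HSC arrays, against 70.9 and 88.0 on the ST-HSC arrays, with a difference of -1.39 (SE 0.34, adjusted p = 0.0433). It repeated the direction of the brighter one, and its call was lost with a pseudocount of 64 (adjusted p = 0.0501), with no filter (adjusted p = 0.0699) and without ST-HSC replicate 3 (adjusted p = 0.104). The probe set 1432604_at went the other way without passing, at 41.4 and 43.0 on the LT-HSC arrays, against 37.9 and 27.3 on the ST-HSC arrays (difference 0.40, adjusted p = 0.433). The 4 values of 1432604_at stayed within a narrow range while the first pair of probe sets spread several-fold. The fourth, 1454293_at, fell under the filter.

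E2f7 encodes an atypical E2F that binds DNA without a DP partner and represses E2F targets late in S phase. Its only probe set, 1437187_at, read 53.4 and 45.4 on the LT-HSC arrays, against 305 and 229 on the ST-HSC arrays. The groups were well apart, and this was the largest difference among the members (-2.02, SE 0.34, adjusted p = 0.0146). E2f8 encodes its close paralogue, with which it shares targets and, in mice, overlapping functions. Its probe set 1436186_at read 102 and 181 on the LT-HSC arrays, against 367 and 663 on the ST-HSC arrays. Replicates differed within both groups but the groups did not overlap (difference -1.62, SE 0.39, adjusted p = 0.0424). The E2f8 call lay close to the threshold and was lost with no filter (adjusted p = 0.0509) and without the intensity trend (adjusted p = 0.0519). A second E2f8 probe set, 1444319_at, was dim and under the filter, at 4.06 and 18.0 on the LT-HSC arrays, against 9.80 and 9.43 on the ST-HSC arrays.

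**Figure D2:**
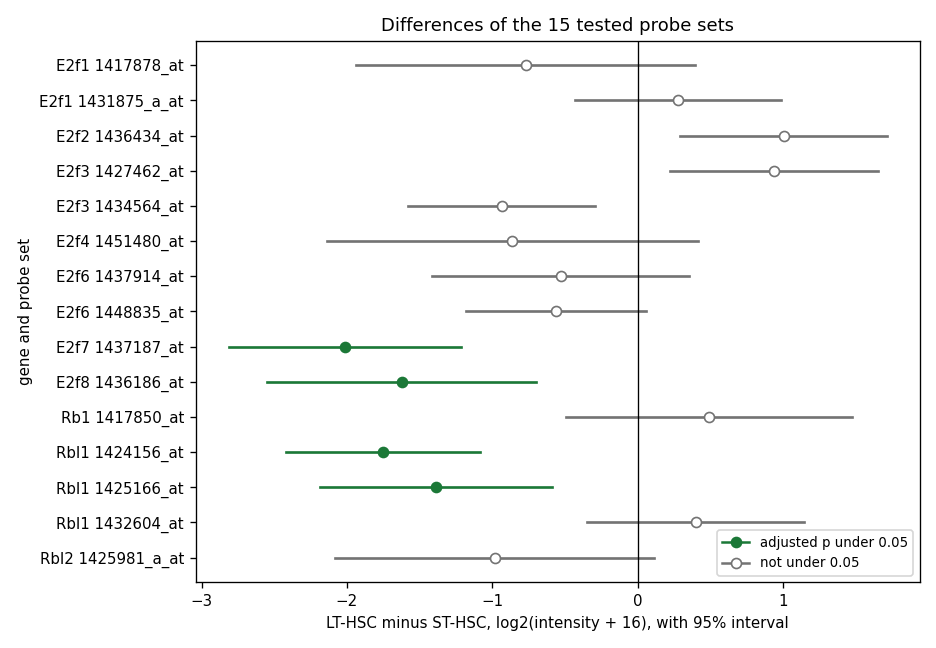
Difference of each of the 15 tested probe sets, LT-HSC minus ST-HSC in log2(intensity + 16), with its 95% interval from the moderated fit (2 arrays per group). The 4 filled points, of E2f7, E2f8 and Rbl1, lie between -2.02 and -1.39, and the 2 E2f3 intervals lie on opposite sides of 0.

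Among the activators, E2f2 was the member with the highest difference. Its probe set 1436434_at read 151 and 186 on the LT-HSC arrays, against 86.4 and 82.6 on the ST-HSC arrays. Every LT-HSC value was above every ST-HSC value, yet the difference of 1.003 (SE 0.30, 95% interval 0.29 to 1.71) did not pass (adjusted p = 0.0745). With any 1 of the 4 arrays left out, the difference ran from 0.94 to 1.07. The second E2f2 probe set, 1455790_at, was under the filter and pointed the other way, at 6.47 and 10.1 on the LT-HSC arrays, against 11.7 and 21.9 on the ST-HSC arrays.

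E2f3, whose gene gives a long and a short protein isoform from separate promoters, had 2 tested probe sets that disagreed. The probe set 1434564_at read 247 and 235 on the LT-HSC arrays, against 489 and 471 on the ST-HSC arrays. The other, 1427462_at, read 86.4 and 93.7 on the LT-HSC arrays, against 43.4 and 44.7 on the ST-HSC arrays. In both, replicates were tight and the groups did not overlap, but the order of the groups was reversed. The differences were -0.93 (SE 0.27, 95% interval -1.58 to -0.29, adjusted p = 0.0686) for 1434564_at and 0.94 (SE 0.30, 95% interval 0.22 to 1.66, adjusted p = 0.0903) for 1427462_at. With any 1 of the 4 arrays left out, 1434564_at ran from -0.98 to -0.86 and 1427462_at from 0.85 to 1.03. The intervals exclude 0 on opposite sides, although neither probe set passed on all 4 arrays. Within an array, the signed log2 difference of 1427462_at minus 1434564_at was 1.87 higher in LT-HSC than in ST-HSC. Centred on the mean of the 4 arrays, this signed difference was 0.95 and 0.93 on the LT-HSC arrays, against -1.07 and -0.80 on the ST-HSC arrays. With 2 arrays against 2 an exact two-sided permutation test cannot go below p = 0.33, which is the value here. The files do not say which transcripts each probe set reads. E2f3 as a gene therefore has no single direction in these data.

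E2f1, the founding activator, had 2 tested probe sets of 3. The probe set 1417878_at had 18.2 and 13.9 on the LT-HSC arrays, against 86.3 and 20.9 on the ST-HSC arrays. The high value was that of ST-HSC replicate 2 alone, and the difference of -0.77 (SE 0.49, adjusted p = 0.333) did not pass. Without ST-HSC replicate 3 it was -1.48 (adjusted p = 0.0484), and without ST-HSC replicate 2 it was -0.09 (adjusted p = 0.912). The probe set 1431875_a_at read 19.8 and 32.8 on the LT-HSC arrays, against 22.4 and 20.1 on the ST-HSC arrays (difference 0.28, adjusted p = 0.569). Another, 1447840_x_at, whose suffix marks probes that may cross-hybridise, was under the filter.

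The repressor gene E2f4, whose protein carries p107 and p130 to silent cell cycle genes, had a single probe set, 1451480_at. It read 0.778 and 22.7 on the LT-HSC arrays, against 13.8 and 55.1 on the ST-HSC arrays. The values of the groups interleaved, and the difference of -0.86 (SE 0.54, adjusted p = 0.321) has a 95% interval from -2.14 to 0.41. Replicates of 1 group differed by more than the group means. Without ST-HSC replicate 2 the difference was -1.48 and without LT-HSC replicate 1 it was -0.37. Without ST-HSC replicate 3 the probe set was under the filter. E2f6, the Polycomb-linked repressor, was steadier: 1448835_at read 342 and 327 on the LT-HSC arrays, against 484 and 528 on the ST-HSC arrays. Both ST-HSC arrays were higher, by a small margin that did not pass (difference -0.56, SE 0.26, adjusted p = 0.198). With any 1 of the 4 arrays left out, the difference ran from -0.63 to -0.51. The dimmer 1437914_at read 20.0 and 62.9 on the LT-HSC arrays, against 81.7 and 56.7 on the ST-HSC arrays (difference -0.53, adjusted p = 0.378).

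Rb1, the retinoblastoma gene, read 373 and 363 on the LT-HSC arrays, against 188 and 398 on the ST-HSC arrays, on 1417850_at. The ST-HSC pair enclosed the LT-HSC values, and the difference of 0.49 (SE 0.41, adjusted p = 0.467) did not pass. It was 1.07 without ST-HSC replicate 3 (adjusted p = 0.0035) and -0.09 without ST-HSC replicate 2 (adjusted p = 0.778), so its sign depended on which ST-HSC array was kept. A second Rb1 probe set, 1444400_at, was under the filter, at 4.67 and 21.0 on the LT-HSC arrays, against 22.0 and 13.8 on the ST-HSC arrays.

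Rbl2, which encodes p130, the pocket protein of quiescent cells, read 110 and 102 on the LT-HSC arrays, against 162 and 376 on the ST-HSC arrays, on 1425981_a_at. Both LT-HSC values were lower, and ST-HSC replicate 3 stood above ST-HSC replicate 2. The difference of -0.99 (SE 0.46, 95% interval -2.08 to 0.11, adjusted p = 0.203) did not pass. Without ST-HSC replicate 2 it was -1.67 (adjusted p = 0.000742) and without ST-HSC replicate 3 it was -0.34 (adjusted p = 0.528). The second Rbl2 probe set, 1418146_a_at, was under the filter, with 3.14 and 10.6 on the LT-HSC arrays, against 12.8 and 16.1 on the ST-HSC arrays.

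Over all 21 probe sets, with no filter, both LT-HSC values were below both ST-HSC values in 10, above them in 4 and mixed in 7. Of all 45037 probe sets, 28.5% were arranged with LT-HSC below and 23.8% with LT-HSC above. The median difference over the 21 was -0.33. The 6 probe sets under the filter read between 3.14 and 27.9 on every array.

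The calls depended on having both LT-HSC arrays. When LT-HSC replicate 1 or LT-HSC replicate 2 was left out, 0 of the 4 called probe sets passed in limma, while all 4 kept a difference below 0 and 3 and 4 of them had an unadjusted p under 0.05. In those fits only 0.0481% and 0.0925% of all probe sets were called lower in LT-HSC. Without ST-HSC replicate 2 all 4 passed, beside 16.8% of all probe sets, and without ST-HSC replicate 3, 3 passed, beside 11.5%. E2f7 ranged from -2.22 to -1.79 over these fits, E2f8 1436186_at from -2.12 to -1.20, and Rbl1 1424156_at from -1.87 to -1.58.

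**Figure D3:**
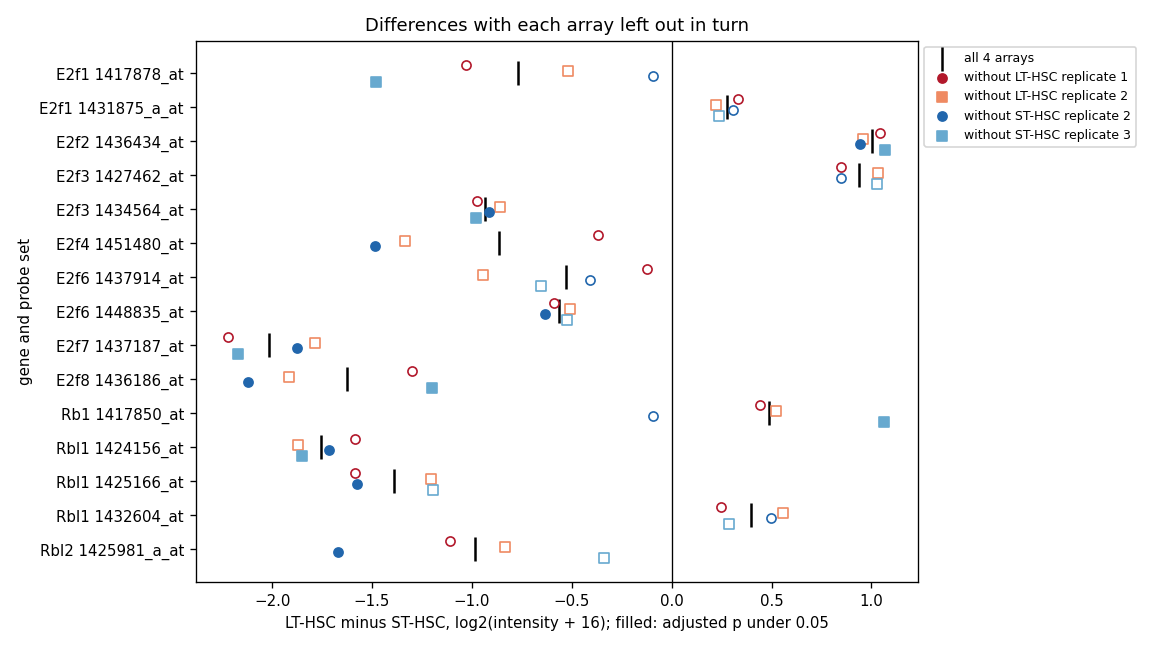
Difference of the 15 tested probe sets, LT-HSC minus ST-HSC in log2(intensity + 16), with all 4 arrays (bars) and with each array left out (points, filled where the adjusted p was under 0.05). E2f7, E2f8 and the first 2 Rbl1 probe sets stay below 0 throughout, and Rb1 lies at -0.09 without ST-HSC replicate 2 and at 1.07 without ST-HSC replicate 3.

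Markers of other cell types were also read. All 7 of 7 plasma cell markers, 4 of 8 tested B-cell markers, 3 of 6 macrophage and dendritic cell markers and 3 of 5 tested T and NK cell markers were called higher in LT-HSC, and 1 T and NK cell marker lower. The 3 T and NK cell markers called higher, Cd3g, Gzma and Klrd1, read between 6.75 and 12.5 on the ST-HSC arrays. They passed the filter only through the LT-HSC arrays, so their calls are no support for a difference. In LT-HSC the summed intensity of the plasma cell list was 43004 and 43528, against 1693 and 2785 on the ST-HSC arrays. None of these markers was at 0 on all arrays. In the direction of the called members, 3 of 4 myeloid progenitor markers were called lower in LT-HSC, with a list median of -4.51. These were Mpo and Ctsg, at -5.16 and -5.10, and Prtn3, at -2.18, all granule enzymes of early myeloid cells. The 4 genes summed to 1175 and 735 on the LT-HSC arrays, against 5807 and 16949 on the ST-HSC arrays. Of 5 megakaryocyte markers 1 was called lower in limma (list median -1.24), with 5 lower and 0 higher at an unadjusted p under 0.05. Of 3 tested mast cell and basophil markers 1 was called lower and 1 higher. The 1 called lower, Ms4a2, read 6.80 and 6.87 on the LT-HSC arrays, against 120 and 94.6 on the ST-HSC arrays. It passed the filter only through the ST-HSC arrays, so its call is no support for a difference. In limma 0 of 7 granulocyte and 0 of 5 tested erythroid markers were called, with 2 and 0 lower and 0 and 0 higher at an unadjusted p under 0.05. The granulocyte list summed to 3796 and 492 on the LT-HSC arrays, against 3420 and 47716 on the ST-HSC arrays, and the erythroid list to 348 and 968 on the LT-HSC arrays, against 286 and 3430 on the ST-HSC arrays. ST-HSC replicate 3, where the granulocyte, erythroid and myeloid progenitor sums were highest, was also the array on which, among the tested member probe sets, E2f4, E2f6 1448835_at, E2f8 1436186_at, Rb1, Rbl1 1425166_at and Rbl2 read highest. The part of these cells in the differences of the members was not tested. Cd34, which separated the gates, fell by 4.78 (adjusted p = 0.000473) in LT-HSC. Of 9 tested stem cell markers, among them Hlf, Procr and Mecom, 8 did not pass and Kit was lower in LT-HSC. At an unadjusted p under 0.05 in limma, 3 of them, Kit, Gata2 and Tek, were lower and 0 higher.

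The other parts of the pathway were read by the brightest probe set of each gene. Over the 12832 genes tested, 6.41% were lower and 7.92% higher in LT-HSC, with a median difference of -0.08. Of the 3 genes that complete the E2F dimers, Tfdp1, the main DP subunit, was lower in LT-HSC and E2f5, a p130 partner, was higher. Tfdp1 read 318 and 261 on the LT-HSC arrays, against 803 and 1271 on the ST-HSC arrays (difference -1.81, SE 0.31, adjusted p = 0.0151). E2f5 on 1447625_at read 621 and 507 on the LT-HSC arrays, against 287 and 161 on the ST-HSC arrays (difference 1.32, SE 0.33, adjusted p = 0.0486). The E2f5 call was lost with a pseudocount of 1 or 64, with no filter, without the intensity trend, and when either LT-HSC array was left out. Its other probe sets, 1417444_at and 1460207_s_at, lay at -0.55 and -0.56 and did not pass, so E2f5, like E2f3, had probe sets of opposite sign.

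Of 10 genes in the list of G1 cyclins and kinases, 5 fell, 1 rose and 4 missed the threshold (median -1.20). The list is not limited to G1 cyclins and kinases, as it also holds Cdc25a, a phosphatase, and cyclin A2. Cdk6 and Cdk4, the partners of D cyclins, fell by 1.87 and 1.33. The Cdk4 probe set read here carries a cross-hybridisation suffix, and of 3 tested Cdk4 probe sets only 1 was called. The Cdk4 call was lost with either centring and without the intensity trend. Ccnd2, cyclin D2, went the other way without passing in limma (difference 0.96, SE 0.35, adjusted p = 0.117). It read 2876 and 3844 on the LT-HSC arrays, against 1910 and 1030 on the ST-HSC arrays. With either centring or with no normalization Ccnd2 was called higher. Over all 27 tested probe sets of this list, 7 were called lower and 3, of Ccnd2 and Ccne1, higher. Ccna2, cyclin A2, read 48.5 and 207 on the LT-HSC arrays, against 622 and 1276 on the ST-HSC arrays (difference -2.88, SE 0.57, adjusted p = 0.0243). Cyclin E genes split, as Ccne2 fell by 2.50 while Ccne1 1441910_x_at rose by 2.21. That Ccne1 probe set carries a cross-hybridisation suffix, and the second one, 1416492_at, lay at -0.62 (adjusted p = 0.577). Of 5 tested CDK inhibitors Cdkn1a, p21, rose by 2.35 (adjusted p = 0.0154) and 4 did not pass.

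Most tested targets of the family were lower in LT-HSC, as were E2f7, E2f8 and Rbl1. In limma, 32 of 38 tested E2F targets of the G1/S transition fell, 0 rose and 6 missed the threshold (median -1.71), and at an unadjusted p under 0.05 33 were lower and 0 higher. Mcm7, Mcm6, Lig1 and Rrm1, which serve origin unwinding, ligation and nucleotide reduction, had the smallest p-values, with differences of -2.34, -2.18, -1.96 and -1.98. Of 27 tested mitotic targets of the DREAM complex, 23 fell in limma, 0 rose and 4 missed the threshold (median -2.28), with 25 lower and 0 higher at an unadjusted p under 0.05. Over all 51 tested probe sets of these genes, 34 were called lower and 1, a dimmer Cdc20 probe set, was called higher. Kif20a, counted among the 23, read 0.94 and 20.6 on the LT-HSC arrays, against 104 and 209 on the ST-HSC arrays. It passed the filter only through the ST-HSC arrays, so its call is no support for a difference. Top2a, Cdc20, Kif23 and Cenpe had the smallest p-values of this list, with differences of -2.59, -1.86, -2.26 and -2.10, while by size the differences reached -3.07, for Nusap1. Without LT-HSC replicate 1 or 2, 1 or 1 of the G1/S genes and 0 or 3 of the G2/M genes passed as lower. Among 7 genes of the MuvB core, B-Myb and FoxM1, Lin9 and Rbbp4, both of the core, fell by 1.36 and 0.68 and 5 did not pass (median -0.68). With no filter 0 of the 7 passed in limma (3 lower and 0 higher at an unadjusted p under 0.05), and Rbbp4 also lost its call with no normalization, with either centring, without the intensity trend and with robust eBayes. Mybl2 (B-Myb) lay at -1.20 (adjusted p = 0.073) and Foxm1 at -0.03 (adjusted p = 0.961).

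Of 10 tested subunits of the E2F6 complex, Wdr5 and Hdac2 fell by 1.29 and 1.54 and 8 did not pass (median -0.61). With no filter 0 of 11 passed in limma (4 lower and 0 higher at an unadjusted p under 0.05), and Hdac2 also lost its call with 75th percentile centring, with a pseudocount of 64 and without the trend. Of 10 tested corepressors of pocket proteins, Rbbp7 and Hdac2 fell, by 0.62 and 1.54, and 8 did not pass (median -0.24). In limma 0 of these 10 passed with 75th percentile centring, with no filter or without the trend, where 1, 2 and 1 were lower and 0 higher at an unadjusted p under 0.05. Rbbp7 was also lost with median centring and with no normalization. When LT-HSC replicate 1 or LT-HSC replicate 2 was left out, 0 genes of the MuvB, E2F6 complex, corepressor, E2F partner, G1 cyclin and kinase, and CDK inhibitor lists passed in limma, with between 0 and 5 of each list lower and 0 or 1 higher at an unadjusted p under 0.05. Of 8 germline genes that E2F6 helps to silence in body cells, 3 were bright enough to test. Ddx4, a germ cell RNA helicase, was at 0.877 and 0.499 on the LT-HSC arrays, against 28.2 and 80.2 on the ST-HSC arrays. Both LT-HSC values lay far under the added constant of 16, so the size of the difference is set by that constant and is not given. The probe set passed the filter only through the ST-HSC arrays, so its call (adjusted p = 0.0403) is no support for a difference, and the others did not pass. In limma with a pseudocount of 1 or 64, or with any 1 of the 4 arrays left out, 0 genes of this list were called, with 1 or 2 lower and 0 higher at an unadjusted p under 0.05.

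**Figure D4:**
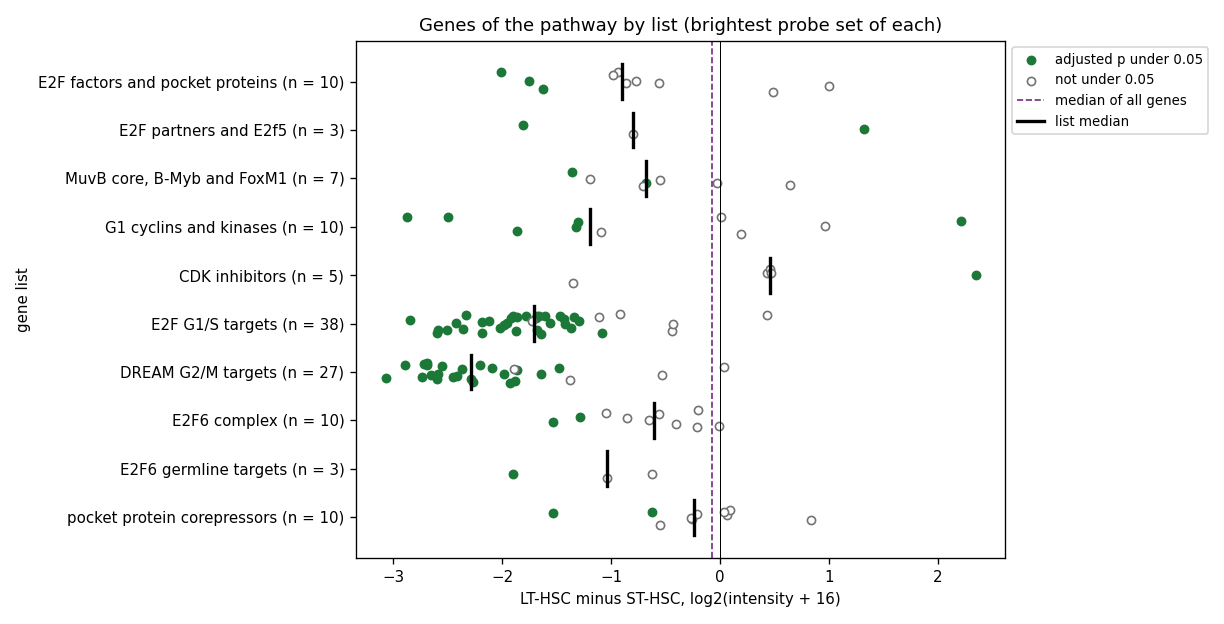
Difference of each tested gene, LT-HSC minus ST-HSC in log2(intensity + 16), by list, with the list median as a black bar and the median of all genes (-0.08) dashed. Genes of the G1/S and DREAM G2/M lists lie mostly below -1, while the E2F factors and pocket proteins spread on both sides of 0.

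The patterns closest to the called members were sought among 12831 other genes, as the root mean square distance between log2 values centred on their mean over the 4 arrays. Nearest to Rbl1 were 3110082I17Rik, Smim3 and Wfdc17, at distances of 0.035 to 0.049. Nearest to E2f7 were Pla2g4a, Hemgn and Ramp1 (0.089 to 0.109), and nearest to E2f8 were Atad2b, Noct and Etaa1 (0.017 to 0.047). Each distance rests on 4 arrays only, and how many genes lie near each member was not counted. The distances are descriptions only.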

How the data were processed

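RNA of the sorted cells was hybridised to 4 Affymetrix whole-genome mouse arrays. Per the labels' protocols, it was extracted with Trizol, put through 2 rounds of amplification and labelled with biotin. The authors deposited linear intensity values, with 1 value for each probe set on each array. How the probes were summarised, and whether arrays were scaled, is not stated in the labels. Of 45101 probe sets, 64 controls were dropped. The median intensity was 19.1 and 28.3 on the LT-HSC arrays and 26.9 and 25.9 on the ST-HSC arrays, so log2(intensity + 16) was quantile normalized. Probe sets whose mean exceeded the 40th percentile were tested by limma 3.58.1 in R 4.3.3 (lmFit, eBayes with an intensity trend). Benjamini-Hochberg adjustment ran over 27022 probe sets. Residual degrees of freedom were 2, with 4.84 added by the prior. Arrays carry no counts, so their number limits the precision.

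The supplied platform annotation gave 1 symbol to 34945 probe sets, and 0 probe sets named a member beside other genes. The members and lists were chosen with earlier results of these data known. Named were all members with every probe set and, per list, up to 4 genes of smallest p past the threshold and every exception to the list's direction. Outside this rule stand Nusap1, the myeloid progenitor markers, Ccne2, Ccnd2, Cdc25a, Mybl2, Foxm1, Hlf, Procr, Mecom, Gata2 and Tek. So do Kif20a, Cd3g, Gzma, Klrd1 and Ms4a2. The further probe sets of E2f5, Ccne1, Cdk4, Ccnd2 and Cdc20 also stand outside it. All of these were picked with their values in view. The fit was tested on simulated data of this comparison over 27022 probe sets. With 2702 changed 4-fold, it found 74.0% and 4.12% of its calls were false, and with 200 changed 4-fold it found 0%. With 200 or 2702 changed 2-fold it found 0%, so a difference of that size that did not pass, as for E2f2, E2f3 and Rbl2, is not shown to be absent. The alternatives were other normalizations, pseudocounts, filters, spread models and thresholds, and each array left out in turn. One item of the mice's genotype is not reported here.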

Additional observations from a re-analysis of the deposited data

How the results depend on the processing

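Over 11 alternatives other than leaving out an array, E2f7 and Rbl1 1424156_at kept their direction and their call (adjusted p up to 0.0175 and 0.0185). E2f8 1436186_at and Rbl1 1425166_at each lost theirs in 2 of the 11. With no filter on dim probe sets, 2 member probe sets were called lower in LT-HSC. At an adjusted p of 0.1, 5 of the 15 tested member probe sets were called lower in LT-HSC and 2 higher. Of all 27022 tested probe sets, 3001 were lower and 2748 higher at that threshold. With 1 array left out, between 0 and 8 member probe sets were called lower in LT-HSC and between 0 and 2 higher. Over all probe sets the counts then ran from 13 to 4527 lower and from 401 to 4247 higher in LT-HSC, with 1480 and 1816 on all 4 arrays. The smallest numbers came without an LT-HSC array and the largest without ST-HSC replicate 2. The Rb1 difference ran from -0.0946 without ST-HSC replicate 2 to 1.0655 without ST-HSC replicate 3, and the cause was not tested. No paired analysis was possible because the groups share only replicate number 2. With an array left out, its group has 1 sample, which is assumed to vary like the other group. No detection calls were used here, so for dim probe sets such as E2f1 and E2f4 the distance from background is unknown.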

Other observations

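The promoter letters of the target lists differed by list, as a description with no test. Of 34 E2F targets of the G1/S transition with a RefSeq window, 15 (44.1%) held an E2F match and 5 (14.7%) a CHR match. Of 24 mitotic targets of the DREAM complex, 2 (8.33%) held an E2F match and 17 (70.8%) a CHR match. Among all 27025 genes these shares were 2.6% and 20.2%. The called members fell on both sides, with an E2F match in Rbl1 and E2f7 and a CHR match in E2f8.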
